A study of Mus musculus with 12 samples.

Results

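The antioxidant and glutathione genes were taken as every gene of the expression table whose symbol belongs to the glutathione S-transferases (Gsta, Gstm, Gstp, Gstt, Gsto, Gstz and Gstk), the glutathione peroxidases (Gpx), the peroxiredoxins (Prdx), the thioredoxins and thioredoxin reductases (Txn and Txnrd) or the superoxide dismutases (Sod). To these were added *Cat*, *Gclc*, *Gclm*, *Gsr*, *Gss*, *Hmox1*, *Hmox2*, *Nqo1*, *Srxn1*, *Nfe2l2* and *Keap1*. The rule used gene symbols and no measured value. It gave 56 of the 21859 genes in the table, and 52 of them passed the filter on low values (log2 mean above -1 in RPM, the reads of a gene scaled to the library total), as did 16932 genes in all. The other members, *Gsta1*, *Gpx2*, *Gpx5* and *Gstp3*, were at or near zero reads in most libraries.

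These genes remove reactive oxygen and the products of its damage. Superoxide dismutases turn superoxide into hydrogen peroxide, which catalase, the glutathione peroxidases and the peroxiredoxins reduce to water, while glutathione and thioredoxin supply the electrons and are recharged by NADPH-dependent reductases. The transcription factor NRF2 (*Nfe2l2*), held in the cytoplasm by KEAP1 until electrophiles or oxidants modify it, turns on many of these genes. In the testis, germ cells are known to be sensitive to heat and to oxidants, and GPX4 is an abundant selenoprotein of developing sperm.

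RNA was measured by RNA-seq (Smart-seq2) in 12 libraries of GFRa1+/Kit- spermatogonia from adult mice. The 5 control libraries carry the genotype label WT, and the 7 cryptorchid libraries, labelled Cryptorchid, are from testes in which cryptorchidism had been induced by surgery and which were taken on day 10 after it. All mice carried the GFRa1-EGFP reporter, which marks cells expressing the receptor for GDNF, and cells with KIT on their surface were left out of the sort. The left testis was moved to the abdominal wall, and the right one stayed in the scrotum as the control. The labels do not say which libraries share a mouse, so *P*-values measure the spread between these libraries. Control testes were digested at a lower temperature than cryptorchid testes, so digestion temperature and cryptorchidism cannot be told apart.

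Between 4511730 and 24345368 reads fell on genes in control and between 3306771 and 20027902 in cryptorchid libraries. Replicates 1 to 3 of both groups differed from replicates 4 and above in the values themselves. Between 74.5% and 94.0% of the library total fell on genes in replicates 1 to 3 and 94.8% to 99.9% in the others. Differences within each of these sets are given for a part of the members. Of 8 markers of undifferentiated spermatogonia all were detected in every library, with a summed level of 1064 to 1642 RPM in control and 1237 to 1946 RPM in cryptorchid. RNA of spermatids, which the sort should remove, was also present. The summed RPM of 6 spermatid markers was 475 to 2618 in control (median 1104) and 13.5 to 1771 in cryptorchid libraries (median 279.5), and *Prm1* and *Prm2*, protamines of the sperm nucleus, were lower in cryptorchid by 2.40 and 3.73 on the log2 scale (unadjusted *P*=0.00790 and 0.000392, limma). Somatic markers were detected as well, with sums of 38.3 to 236 RPM for Sertoli cells, 5.29 to 47.8 RPM for Leydig cells, 8.73 to 37.1 RPM for endothelial cells and 2.25 to 27.1 RPM for macrophages, while 3 of 5 erythrocyte markers had no reads in any library. All 4 endothelial markers had higher means in cryptorchid, with *Cdh5* called (2.01, unadjusted *P*=0.00807, limma). Markers of peritubular cells went both ways, with *Des* called (2.55, unadjusted *P*=0.0120, limma) at no more than 1.70 RPM, *Acta2* at 0.56 and *Myh11* at -1.14. Those of differentiating spermatogonia did so too, with *Stra8* called (1.09, unadjusted *P*=0.00371, limma), *Kit* at 0.45, *Sohlh1* at -0.65 and *Dmrtb1* at -0.76. Spermatocyte markers, 5 in number, summed to 200 to 339 RPM in control and 259 to 482 RPM in cryptorchid libraries. Of these, 4 had a higher and 1 a lower mean in cryptorchid, and 0 were called. The part of all these cells in the members' values was not tested.

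NRF2 acts through the antioxidant response element, whose core TGACNNNGC was searched on both strands of the RefSeq promoters (GRCm38.p6), short windows around transcript starts. Promoters were given for 48 members, and *Gclc*, *Gsr*, *Gsta4*, *Gstt2*, *Hmox1*, *Prdx6*, *Prdx6b* and *Sod3* had none. The core was found in 9 members, 18.8% of those with a promoter, against 14.0% of all 27025 genes in the promoter set. Counted by promoter, the share was 14.3% of 63 member promoters, against 12.4% of all 32851. The stretches are shown because NRF2 is known to act through this core. They are printed with the core in capitals, 5′ to 3′ on the strand of the gene, so that a core on the opposite strand reads GCNNNGTCA.
*Nfe2l2* (chr2:75704885-75704913): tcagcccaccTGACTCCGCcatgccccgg
*Gclm* (chr3:122245413-122245441): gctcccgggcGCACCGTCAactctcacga
*Prdx1* (chr4:116685456-116685484): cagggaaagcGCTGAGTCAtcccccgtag
*Txnrd1* (chr10:82859104-82859132): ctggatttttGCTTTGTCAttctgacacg
*Srxn1* (chr2:152105542-152105570): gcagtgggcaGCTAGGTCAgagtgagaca
*Sod1* (chr16:90220696-90220724): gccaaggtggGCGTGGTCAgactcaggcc
*Gsta3* (chr1:21240454-21240482): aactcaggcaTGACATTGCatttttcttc
*Gstm5* (chr3:107895802-107895830): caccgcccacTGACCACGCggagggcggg
*Gstm7* (chr3:107931725-107931753): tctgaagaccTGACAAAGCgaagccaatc
*Nfe2l2* and *Gstm7* lie on the minus strand of the genome and the other genes on the plus strand. The *Txnrd1* stretch lies well inside its gene, which spans 82833951 to 82897712. A match of these letters is a description of the sequence and does not show that NRF2 binds there.

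The question put to these genes was whether spermatogonia of the cryptorchid testis express them at another level than those of the scrotal testis. *Gsta3* and *Gsta2*, of the alpha class of glutathione S-transferases, were called lower in cryptorchid libraries, and the peroxidase *Gpx4* was lower by slightly less than 2-fold. Neither call held after adjustment in the pooled libraries (adjusted *P*=0.268 and 0.479, limma), and both were lost in replicates 1 to 3 alone. With a block for replicate number, kept as an alternative, the adjusted limma *P* was 0.0783 for *Gsta3*, 0.0498 for *Gsta2* and 0.00849 for *Gpx4*. With that block 567 of all genes were lower after adjustment. No member was called higher. The NRF2 gene and some of its known targets, *Hmox1*, *Gclm*, *Gclc* and *Txnrd1*, differed by less than the spread of the libraries. These genes do not stand for every target of NRF2. *Nqo1*, another known target, was too sparse to tell (difference 1.06, 95% interval -1.13 to 3.24). A gene was called when it differed by 2-fold or more with an unadjusted limma *P*-value under 0.05. Of the 52 members tested, 2 were called lower (3.85%), against 2.36% of all genes tested, and 0 were called higher, against 3.56%. At an unadjusted *P*-value under 0.05 and with no limit on the fold, 3 members were lower (background 3.82%) and 0 were higher (background 5.67%), against 9.48% of all genes in either direction.
After Benjamini-Hochberg adjustment over the 16932 genes, no member had a limma *P*-value under 0.05, whereas 3 members had one before adjustment and 0.0118% of all genes had an adjusted one. The mean was lower in cryptorchid for 31 of the 52 members and higher for 21, and the median log2 difference was -0.13, against 0.10 over all genes tested, of which 43.3% had a lower mean. The cryptorchid and control values of a member overlapped in every case, while 0.839% of all genes had groups without overlap, 0.555% being higher. For 14 of the 52 members the 95% interval of the difference lay within 2-fold in both directions. Over all genes the calls were 60.2% higher ones, and 45.7% with quantile normalization between libraries.

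**Figure D1:**
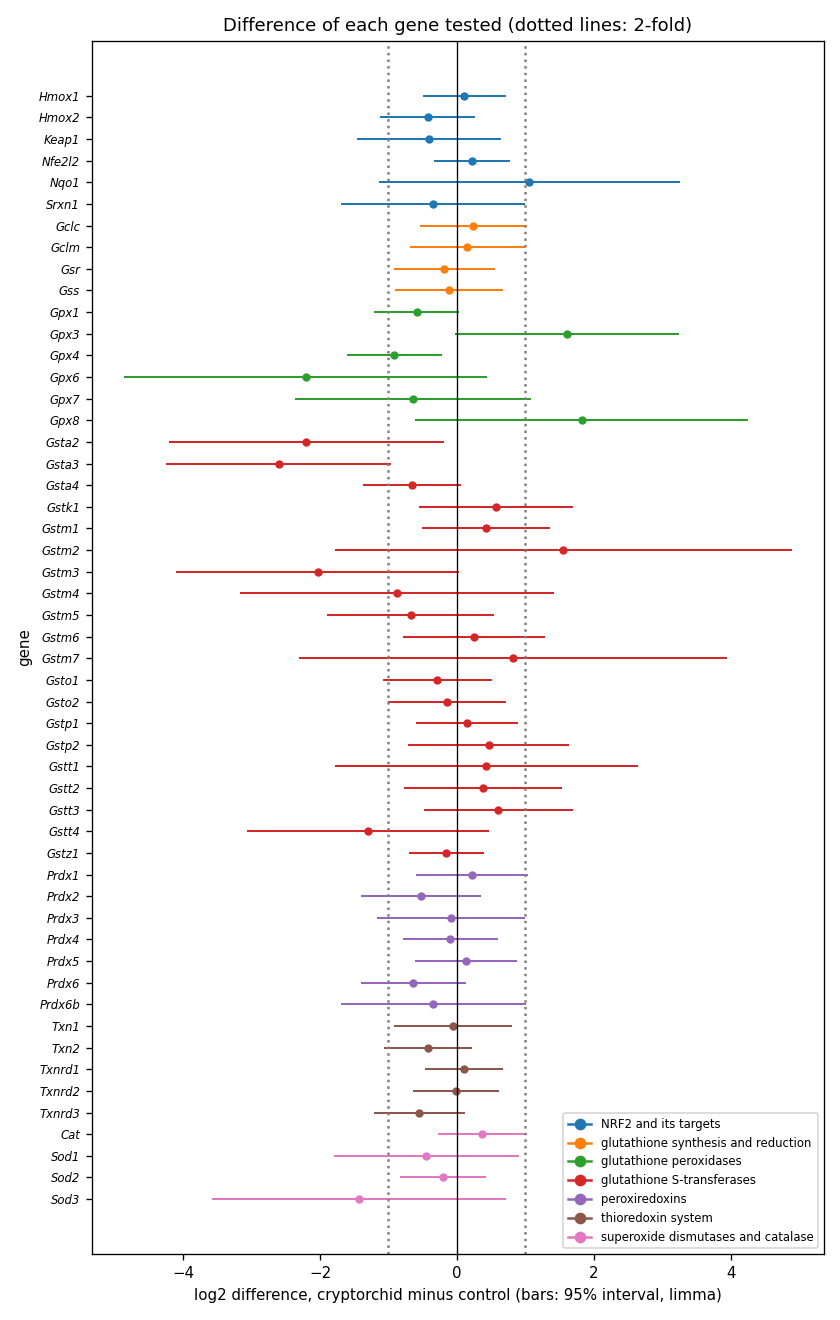
Log2 difference (cryptorchid minus control) of the 52 members tested, ordered by family, with the 95% interval from limma as bars and dotted lines at 2-fold. *Gsta3*, *Gsta2* and *Gpx4* are the members whose interval stays below 0, and no interval stays above 0.

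*Nfe2l2* itself, the gene for NRF2, lay at 5.93, 5.42, 5.04, 5.47 and 6.22 log2 RPM in control replicates 1 to 5. In cryptorchid libraries it ran from 5.58 to 6.16 with a median of 5.78. The cryptorchid range lay inside the control range, and the difference was 0.22 with a 95% interval from -0.33 to 0.76. *Keap1*, which encodes the inhibitor of NRF2, had 3.47, 4.32, 3.43, 4.86 and 5.12 log2 RPM in control and 2.25 to 4.81 (median 3.90) in cryptorchid. Its difference of -0.40 (95% interval -1.44 to 0.63, unadjusted *P*=0.423, limma) was within the spread of the replicates, and 3 cryptorchid libraries lay below every control library.

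*Hmox1* encodes the inducible heme oxygenase, which breaks down heme and is a sensitive target of NRF2 and of heat. Its control values were 6.01, 6.29, 5.08, 6.06 and 6.03 log2 RPM, and its cryptorchid values ran from 5.22 to 6.54 with a median of 6.04. Apart from replicate 3, which was the lowest library in both groups, the values of the groups lay on top of each other. The difference was 0.11 (95% interval -0.48 to 0.70, unadjusted *P*=0.707, limma), 0.22 in replicates 1 to 3 and -0.06 in replicates 4 and above. *Hmox2*, the constitutive heme oxygenase, had a difference of -0.43 (unadjusted *P*=0.202, limma), and its exons overlap those of *Cdip1* on the other strand. The difference of *Hmox2* was -0.41 in replicates 1 to 3 and -0.73 in replicates 4 and above (unadjusted *P*=0.444 and 0.00111, limma).
*Nqo1*, a quinone reductase and textbook NRF2 target, was sparse, as control libraries held 1 to 158 of its reads and cryptorchid libraries 2 to 113. Control libraries had 2.70, 0.28, -3.35, 0.71 and -0.59 log2 RPM and cryptorchid libraries -1.22 to 3.34 (median 0.51). With values this spread, the difference of 1.06 had a 95% interval from -1.13 to 3.24, so a change of 2-fold in either direction was not detectable. It was 2.16 in replicates 1 to 3, 0.18 in replicates 4 and above and 0.23 without control replicate 3. *Srxn1*, which repairs over-oxidized peroxiredoxins, had 1.98, 2.30, 2.46, 2.71 and 3.32 log2 RPM in control and 0.63 to 3.72 (median 2.14) in cryptorchid. The cryptorchid libraries surrounded the control ones on both sides, and the difference was -0.35 (95% interval -1.67 to 0.98).

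Glutathione is made by glutamate-cysteine ligase, with *Gclc* as the catalytic and *Gclm* as the modifier subunit, then by *Gss*, and is reduced after use by *Gsr*. *Gclc* had 5.84, 5.89, 4.12, 5.32 and 5.50 log2 RPM in control and 4.59 to 6.47 (median 5.53) in cryptorchid libraries. *Gclm* had 6.85, 6.72, 4.55, 5.73 and 6.26 log2 RPM in control and 4.97 to 6.71 (median 6.28) in cryptorchid. Both subunits were lowest in replicate 3 of each group, and their differences were 0.24 (95% interval -0.53 to 1.0) and 0.15 (95% interval -0.67 to 0.98). *Gsr* had 8.29, 7.28, 6.32, 7.14 and 7.28 log2 RPM in control and 6.36 to 7.99 (median 7.29) in cryptorchid, a difference of -0.19 (95% interval -0.91 to 0.54). For *Gss* it was -0.12, and exons of this gene overlap those of *Acss2* on the other strand. None of the 4 genes of synthesis and reduction was called in either direction.

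Among the glutathione peroxidases, which reduce peroxides with glutathione, the gene with the smallest *P*-value was *Gpx4* (chromosome 10 of GRCm38, 80047166 to 80056439). GPX4 is the member that reduces lipid hydroperoxides within membranes and so blocks ferroptosis. Control replicates 1 to 5 had 8.24, 7.73, 7.20, 8.36 and 8.58 log2 RPM, and cryptorchid replicates 1 to 7 had 6.79, 6.48, 6.75, 7.75, 6.52, 7.66 and 7.79. Cryptorchid replicates 1, 2, 3 and 5 lay below every control library, and the other 3 lay within the control range. Control libraries averaged 8.02 ± 0.557 (SD, n=5) and cryptorchid libraries 7.10 ± 0.598 (SD, n=7), a difference of -0.91 (standard error 0.323, unadjusted *P*=0.0112, adjusted *P*=0.380 in limma), or 1.89-fold lower.
The difference of *Gpx4* was -1.05 in replicates 1 to 3 and -1.04 in replicates 4 and above, with no overlap of the groups in either set. Values without overlap and lower in cryptorchid were seen in 3.58% and 14.1% of all genes in these sets. With a term for the set, the difference passed the 2-fold limit (-1.04, unadjusted *P*=0.00109, limma), as it did without control replicate 3 (-1.12) or cryptorchid replicate 4 (-1.02), 6 (-1.01) or 7 (-1.03). Of the 100-base windows of its transcript, 48.4% also occur in the pseudogene *Gpx4-ps2* or in AC122253.3, so the counting could have split its reads.

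*Gpx1*, the widely expressed cytosolic peroxidase, had 6.40, 6.70, 5.92, 7.43 and 7.09 log2 RPM in control and 5.63 to 6.63 (median 6.19) in cryptorchid libraries. The ranges overlapped from 5.92 to 6.63, and the difference of -0.59 did not pass the test (95% interval -1.19 to 0.01, unadjusted *P*=0.0545). It was -0.41 in replicates 1 to 3 and -0.997 in replicates 4 and above (unadjusted *P*=0.386 and 0.00247, limma). *Gpx6*, another member of the family, had 0.75, 0.11, 2.48, 3.54 and 4.20 log2 RPM in control and -2.89, -3.63, -0.26, 2.18, -1.92, 3.57 and 3.02 in cryptorchid replicates 1 to 7. The cryptorchid libraries split between values as high as control and values at or near the floor, and the difference of -2.21 had a 95% interval from -4.85 to 0.43 (unadjusted *P*=0.0958). It was -3.38 in replicates 1 to 3 and -2.16 in replicates 4 and above (unadjusted *P*=0.0395 and 0.152, limma). The call was made with a term for the set (-2.80, unadjusted *P*=0.00942) and without cryptorchid replicate 6 (-2.80) or 7 (-2.71).
*Gpx3*, the secreted plasma peroxidase, differed in the other direction without passing the test. It had 0.52, 2.06, 1.11, 3.27 and -2.17 log2 RPM in control and 1.70 to 3.45 (median 2.63) in cryptorchid, a difference of 1.61 (95% interval -0.01 to 3.23, unadjusted *P*=0.0515) on at most 120 control and 243 cryptorchid reads. The cryptorchid libraries were close together and the control libraries were not, as the SD was 0.521 against 2.04. The difference was 1.69 in replicates 1 to 3 and 1.76 in replicates 4 and above, and it passed both limits when control replicate 2 (1.89), control replicate 4 (2.19) or cryptorchid replicate 4 (1.76) was left out. With a term for the set *Gpx3* was called higher (1.72, unadjusted *P*=0.0379, limma). Without control replicate 5, the lowest library, it was 0.83 (unadjusted *P*=0.211, limma). *Gpx8*, a peroxidase of the endoplasmic reticulum, had -3.02, -1.52, -3.50, 1.35 and -2.33 log2 RPM in control and -3.48 to 3.27 (median 0.28) in cryptorchid, on at most 45 reads. Its difference of 1.83 (unadjusted *P*=0.13) passed when control replicate 4 (2.61) or cryptorchid replicate 2 (2.41) was left out. *Gpx7* did not pass the test (difference -0.64, 95% interval -2.36 to 1.07). *Gpx5* had no reads in any library, and *Gpx2* had at most 13 reads in control and 1 read in cryptorchid.

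**Figure D2:**
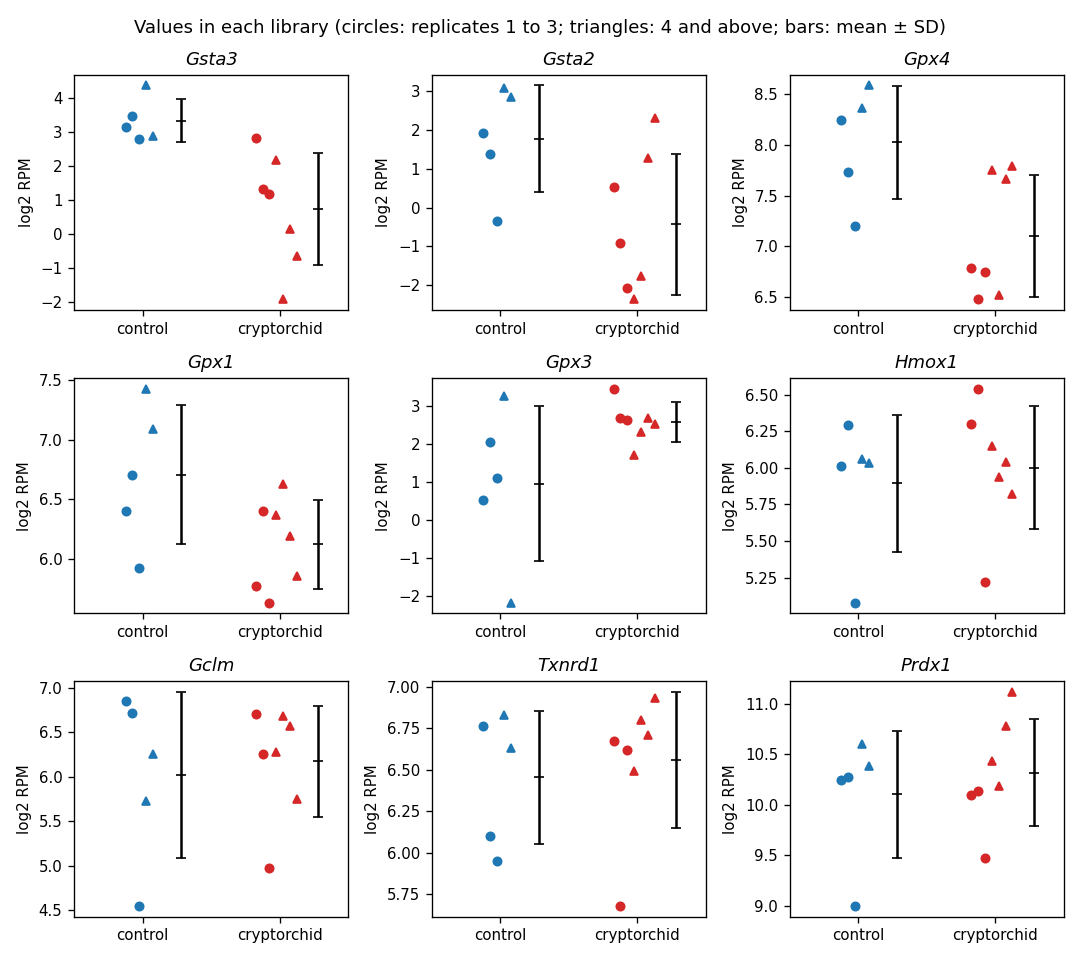
Log2 RPM of 9 members in each library, control in blue and cryptorchid in red, with circles for replicates 1 to 3, triangles for replicates 4 and above and black bars for the mean ± SD. For *Gsta3*, 6 of the 7 cryptorchid libraries lie below the lowest control library, whereas the groups overlap widely for *Hmox1*, *Gclm*, *Txnrd1* and *Prdx1*.

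Glutathione S-transferases attach glutathione to electrophiles, and the alpha class also reduces organic hydroperoxides. *Gsta3* (chromosome 1 of GRCm38, 21240589 to 21265661), whose promoter stretch is printed above, had the smallest *P*-value of all members. Control replicates had 3.15, 3.45, 2.80, 4.36 and 2.87 log2 RPM, and cryptorchid replicates 1 to 7 had 2.83, 1.33, 1.18, 2.18, -1.92, 0.14 and -0.64. Among cryptorchid libraries, replicate 1 alone reached the control range, and cryptorchid replicate 5 had no reads. The mean fell from 3.33 ± 0.634 (SD, n=5) to 0.73 ± 1.65 log2 RPM (SD, n=7), a difference of -2.60 (standard error 0.773, unadjusted *P*=0.00353, adjusted *P*=0.268 in limma), or 6.06-fold. It was -1.36 in replicates 1 to 3 and -3.68 in replicates 4 and above, and the call held with any library left out (-2.95 to -2.16) but was lost in replicates 1 to 3 alone (unadjusted *P*=0.141, limma). The values rest on 33 to 315 reads per control library and 0 to 158 per cryptorchid library.
*Gsta2* (chromosome 9 of GRCm38, 78331018 to 78355788) had 1.92, 1.38, -0.35, 3.06 and 2.83 log2 RPM in control and -2.36 to 2.30 (median -0.90) in cryptorchid libraries. In 4 cryptorchid libraries it lay below every control library, and in the others it lay within the control range. Control libraries averaged 1.77 ± 1.37 (SD, n=5) and cryptorchid libraries -0.43 ± 1.81 (SD, n=7), a difference of -2.20 (standard error 0.948, unadjusted *P*=0.0326, adjusted *P*=0.479 in limma). The difference was -1.80 in replicates 1 to 3, where the call was lost, and -3.09 in replicates 4 and above (unadjusted *P*=0.201 and 0.0480, limma). The call was lost when control replicate 1 (-2.16), 4 (-1.87) or 5 (-1.93) or cryptorchid replicate 3 (-1.92), 4 (-1.88) or 5 (-1.97) was left out. Of its 100-base windows 35.0% also occur in transcripts of other genes, *Gm10639* and *Gsta1* first, so its reads are uncertain. *Gsta1*, which did not pass the filter, had at most 15 reads in a control library and none in any cryptorchid one.
*Gsta4*, which clears the lipid peroxidation product hydroxynonenal, had 5.75, 5.39, 4.80, 6.53 and 6.12 log2 RPM in control and 4.57 to 5.82 (median 4.84) in cryptorchid. It lay below every control library in 3 of the 7 cryptorchid libraries, and the difference of -0.66 did not pass the test (95% interval -1.36 to 0.05, unadjusted *P*=0.066). It was -0.65 in replicates 1 to 3 and -0.97 in replicates 4 and above (unadjusted *P*=0.207 and 0.0147, limma). Thus the 3 alpha class genes tested had lower means, and 2 of them were called.

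In the mu class, *Gstm5*, a mu class gene known for its expression in testis and brain, had 8.95, 8.34, 8.20, 10.39 and 10.43 log2 RPM in control and 7.03 to 10.25 (median 8.53) in cryptorchid libraries. Replicates 4 and above were higher than replicates 1 to 3 in both groups, and the pooled difference of -0.67 (unadjusted *P*=0.256) was -1.10 in replicates 1 to 3 and -0.93 in replicates 4 and above (unadjusted *P*=0.0481 and 0.0537, limma). *Gstm5* was thus called in replicates 1 to 3 and with a term for the set (-1.02, unadjusted *P*=0.00478), though not in the pooled libraries. *Gstm3* had 0.30, -1.26, 1.11, 1.54 and 1.0 log2 RPM in control and -3.48 to 1.58 (median -1.92) in cryptorchid, on at most 30 reads. Its difference of -2.03 (95% interval -4.08 to 0.01, unadjusted *P*=0.0513) narrowly missed the threshold, and 13.8% of its 100-base windows occur in other genes. Without control replicate 2 it was -2.48, without cryptorchid replicate 2 it was -2.30 and without cryptorchid replicate 7 it was -2.55, each past the threshold. It was -2.25 in replicates 1 to 3 and -2.24 in replicates 4 and above.
*Gstm2* and *Gstm7* spanned -3.63 to 6.35 and -3.63 to 6.33 log2 RPM over the 7 cryptorchid libraries, with the lowest value of both in cryptorchid replicate 2, which had no reads of either. The differences of *Gstm1*, *Gstm2*, *Gstm4*, *Gstm6* and *Gstm7* ran from -0.87 to 1.55, and none passed the test.
In the theta class, *Gstt4* had 5.96, 4.04, 5.50, 7.03 and 7.64 log2 RPM in control and 2.93, 1.52, 4.24, 5.95, 4.57, 7.37 and 6.56 in cryptorchid replicates 1 to 7. Only cryptorchid replicates 1 and 2 lay below the control range, and the difference was -1.30 (95% interval -3.06 to 0.46, unadjusted *P*=0.137). It was -2.27 in replicates 1 to 3 and -1.22 in replicates 4 and above (unadjusted *P*=0.0121 and 0.0778, limma). The call was made with a term for the set (-1.78, unadjusted *P*=0.00290) and without cryptorchid replicate 6 (-1.74), whereas without cryptorchid replicate 2 the difference was -0.76. *Gstp1* and *Gstp2*, the pi class, had differences of 0.15 and 0.47, but 52.8% and 63.5% of their 100-base windows occur elsewhere, in each other or in a pseudogene, so they cannot be separated with certainty. *Gstt1*, *Gstt2* and *Gstt3* had differences from 0.38 to 0.61, and none passed the test. The other classes, *Gsto1*, *Gsto2*, *Gstz1* and *Gstk1*, had differences from -0.28 to 0.58 and were not called. For *Gsto1* the difference was 0.14 in replicates 1 to 3 and -0.83 in replicates 4 and above (unadjusted *P*=0.822 and 0.0141, limma). Of the 20 transferases tested, 10 had a higher and 10 a lower mean.

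Peroxiredoxins reduce hydrogen peroxide with a reactive cysteine, and thioredoxin restores them. *Prdx1*, the main cytosolic form, had 10.25, 10.28, 9.0, 10.60 and 10.39 log2 RPM in control and 9.47 to 11.12 (median 10.19) in cryptorchid libraries. It rests on 4002 to 35773 reads per library, and the difference was 0.22 (95% interval -0.59 to 1.02). *Prdx6*, which also has phospholipase activity, had 7.03, 6.62, 5.44, 7.20 and 7.26 log2 RPM in control and 5.03 to 6.87 (median 6.02) in cryptorchid. Its difference of -0.64 (unadjusted *P*=0.0919) was -0.48 in replicates 1 to 3 and -1.02 in replicates 4 and above (unadjusted *P*=0.427 and 0.00236, limma). *Prdx2*, *Prdx3*, *Prdx4*, *Prdx5* and *Prdx6b* ran from -0.53 to 0.14, and none of the 7 peroxiredoxins was called in the pooled libraries. *Prdx2* was called, like *Prdx6*, in replicates 4 and above (-1.15, unadjusted *P*=0.0117, limma), and its difference was -0.17 in replicates 1 to 3.

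In the thioredoxin system, *Txn1* had 4.67, 5.20, 3.61, 5.66 and 5.36 log2 RPM in control and 4.04 to 5.65 (median 5.16) in cryptorchid libraries, a difference of -0.06 (95% interval -0.91 to 0.79). *Txnrd1*, the cytosolic reductase that recharges it, had 6.76, 6.10, 5.95, 6.83 and 6.63 log2 RPM in control and 5.68 to 6.93 (median 6.67) in cryptorchid. The groups covered nearly the same range, and the difference was 0.10 (95% interval -0.45 to 0.66). *Txnrd3*, a reductase of thioredoxin and glutathione known for its expression in testis, had 7.58, 6.80, 5.92, 6.92 and 6.94 log2 RPM in control and 5.59 to 7.04 (median 6.23) in cryptorchid. With a difference of -0.55 (95% interval -1.20 to 0.10, unadjusted *P*=0.0911) it did not pass the test. It was -0.64 in replicates 1 to 3 and -0.53 in replicates 4 and above (unadjusted *P*=0.270 and 0.0270, limma). The mitochondrial *Txn2* and *Txnrd2* had differences of -0.42 and -0.01, and neither passed the test. For *Txn2* the difference was -0.08 in replicates 1 to 3 and -0.86 in replicates 4 and above (unadjusted *P*=0.886 and 0.0102, limma).

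Superoxide is removed by *Sod1* in the cytosol, *Sod2* in mitochondria and *Sod3* outside the cell, and hydrogen peroxide by catalase in peroxisomes. *Sod1* had 9.43, 9.79, 6.60, 10.52 and 10.18 log2 RPM in control and 6.26 to 9.49 (median 9.39) in cryptorchid libraries. Replicate 3 lay far below the rest in both groups, and the difference of -0.45 had a 95% interval from -1.78 to 0.89. Without control replicate 3 it was -1.12 and passed the threshold (unadjusted *P*=0.0421, limma), and without cryptorchid replicate 3 it was -0.017. Within the sets it was -0.48 in replicates 1 to 3 and -0.95 in replicates 4 and above (unadjusted *P*=0.614 and 0.000156, limma). *Sod2* had 7.01, 6.73, 5.72, 7.36 and 6.86 log2 RPM in control and 5.75 to 6.86 (median 6.59) in cryptorchid, a difference of -0.20 (95% interval -0.81 to 0.41). *Cat*, the catalase gene, had 5.97, 5.70, 6.77, 5.14 and 5.82 log2 RPM in control and 5.68 to 7.15 (median 6.21) in cryptorchid. Here replicate 3 was the highest library of both groups, and the difference of 0.37 did not pass the test (95% interval -0.27 to 1.01). *Sod3* had at most 23 reads in a library, and its difference of -1.43 did not pass the test (95% interval -3.57 to 0.71, unadjusted *P*=0.177, limma). It was -0.78 in replicates 1 to 3 and -2.56 in replicates 4 and above, where it was called (unadjusted *P*=0.661 and 0.0210, limma).

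**Figure D3:**
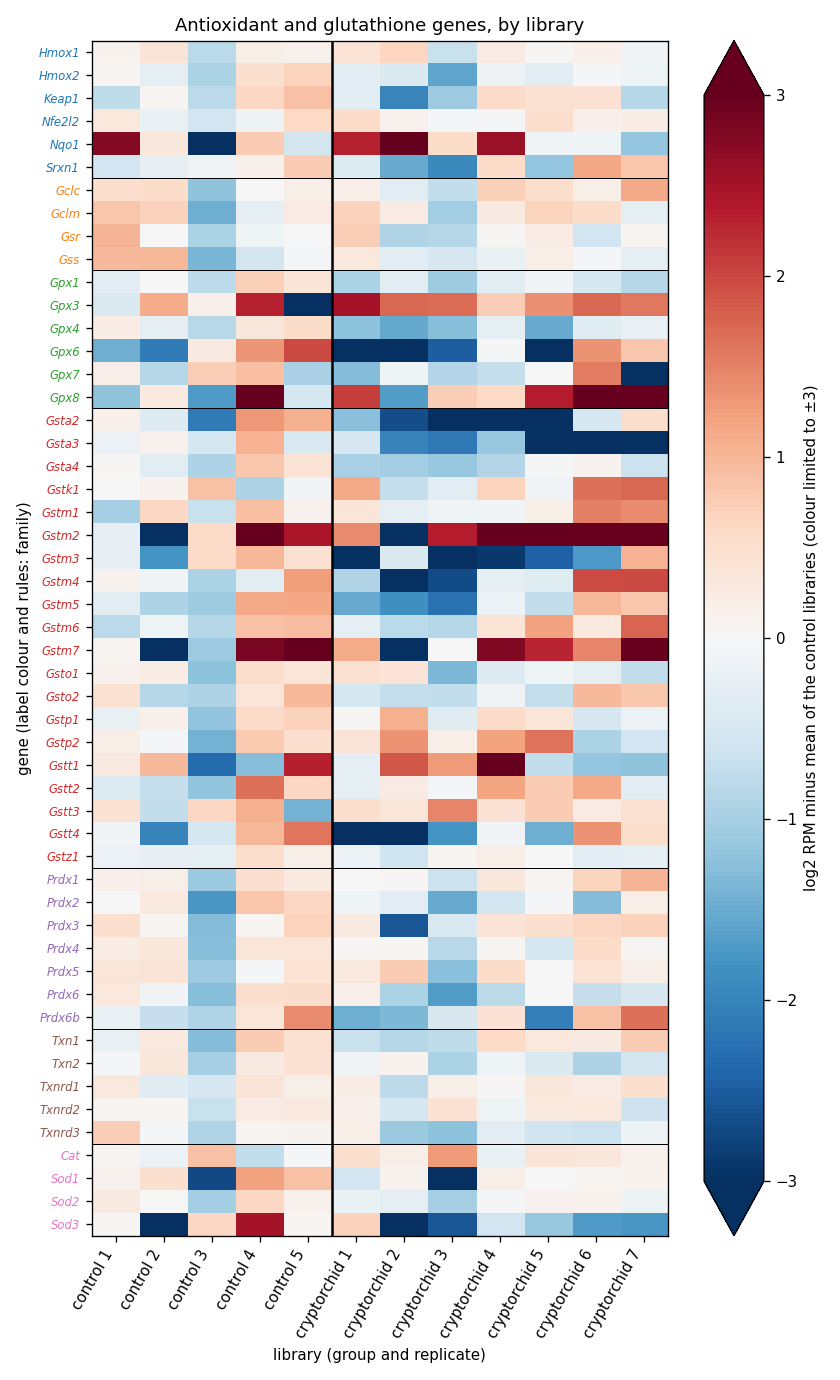
Log2 RPM of the 52 members tested in each of the 12 libraries, minus the mean of the 5 control libraries, with red for higher and blue for lower values and families separated by lines. Control replicate 3 is blue for most members, and *Gsta3* and *Gsta2* are blue in most cryptorchid libraries.

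Replicate number was followed by much of the spread among the members. Control replicate 3 had the lowest control value for 39 of the 52 members (75.0%, against 39.3% of all genes tested), and cryptorchid replicate 3 the lowest cryptorchid value for 22 of them (42.3%, against 31.3%). Within replicates 4 and above, where 2 control libraries meet 4 cryptorchid ones, 16 members (30.8%) were lower without overlap, against 14.1% of all genes, and 0 were higher, against 14.1%. These 16 were *Gsta2*, *Gsta3*, *Gsta4*, *Gstm5*, *Gsto1*, *Gstp1*, *Gpx1*, *Gpx4*, *Prdx2*, *Prdx6*, *Txn2*, *Txnrd3*, *Hmox2*, *Keap1*, *Sod1* and *Sod3*. Within replicates 1 to 3, 4 members (*Gpx4*, *Gpx6*, *Gsta4* and *Gstm5*) were lower without overlap, against 3.58% of all genes, and 3 members (*Gpx3*, *Gstp2* and *Gstt2*) were higher, against 4.69%. *Gpx4*, *Gsta4* and *Gstm5* are in both lists of lower genes.

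The values of several members were set beside the spermatid RNA of the libraries. The summed spermatid markers were 1104, 475, 697, 2205 and 2618 RPM in control replicates 1 to 5 and 91.9, 13.5, 279.5, 633, 113, 1771 and 514.6 RPM in cryptorchid replicates 1 to 7. In the order of the libraries, *Gpx6* and *Gstt4* were lowest in cryptorchid replicate 2, where the sum was smallest, and within the cryptorchid group both were highest in replicate 6, where it was greatest. *Gstm5* had its highest cryptorchid value in that library too (10.25 log2 RPM). *Gsta3* did not show this order, as its cryptorchid values were 0.14 in replicate 6 and 2.83 in replicate 1. All 6 spermatid markers had lower means in cryptorchid, of which 2 were called, with a median difference of -2.28, and the part of this RNA in the lower values of *Gpx4*, *Gpx6*, *Gstt4* and *Gstm5* was not tested. In such sorted bulk RNA, fewer cells of a type and less RNA per cell cannot be told apart.

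**Figure D4:**
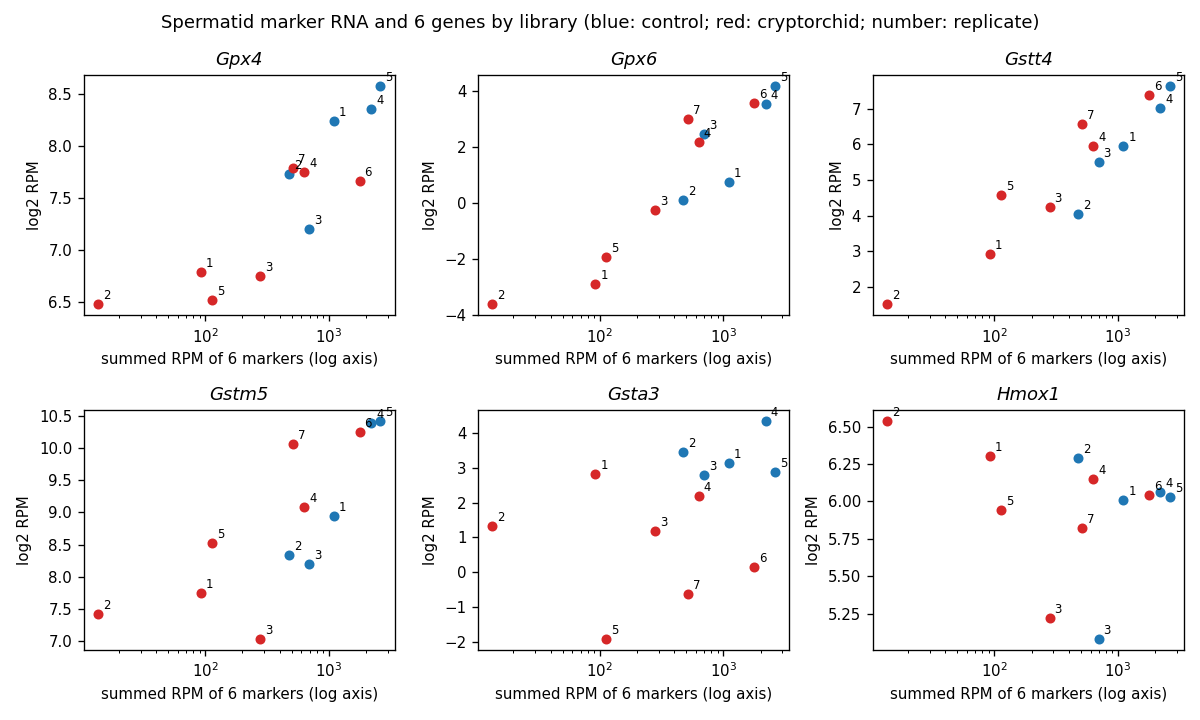
Summed RPM of 6 spermatid markers (log axis) and log2 RPM of 6 members in the 12 libraries, control in blue and cryptorchid in red, with the replicate number beside each point. *Gpx6* and *Gstt4* lie low in the cryptorchid libraries with little spermatid RNA (13.5 RPM in replicate 2), whereas *Hmox1* lies at 5.08 to 6.54 log2 RPM over the whole range.

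Genes around the members were read from 8 lists covering NADPH supply, cysteine and the gamma-glutamyl cycle, other proteins that control NRF2, other thioredoxin-fold and repair proteins, iron and heme, membrane transferases and export, selenoproteins and sources of superoxide. Of 82 genes 80 were tested, and 2 were called higher (background 3.56%) and 3 lower (background 2.36%), with a median difference of -0.03 against 0.10 over all genes. None passed after adjustment in limma, and 8 had an unadjusted *P*-value under 0.05.
*Pgd*, which makes NADPH in the pentose phosphate pathway, was the gene of these lists whose groups did not overlap, as is so for 0.283% of all genes in this direction. Control libraries had 7.38, 6.79, 6.79, 7.04 and 6.49 log2 RPM and cryptorchid libraries 5.48 to 6.48 (median 5.84), so the nearest libraries of the groups almost touched. The difference was -1.005 (standard error 0.250, unadjusted *P*=0.000837, adjusted *P*=0.205 in limma), which stands at the 2-fold limit, with -0.86 in replicates 1 to 3 and -1.05 in replicates 4 and above. Its call was lost, as the fold slipped under 2, without control replicate 1 (-0.88) or 4 (-0.97) or cryptorchid replicate 3, 5, 6 or 7 (-0.997 to -0.94). It was the only called gene among 7 of NADPH supply.
*Mafk*, a small MAF partner of NRF2, had a difference of -1.22 (unadjusted *P*=0.0362) and was the only one called among 12 genes of NRF2 control, with -0.43 in replicates 1 to 3 and -1.55 in replicates 4 and above. *Nox4*, an oxidase that makes hydrogen peroxide, had -1.28 (unadjusted *P*=0.0184), and without control replicate 3, at 5.74 log2 RPM against 3.41 to 3.83 in the other control libraries, it was -0.86 and lost its call. *Xdh*, whose product makes superoxide in its oxidase form, had a difference of 3.11 (unadjusted *P*=0.0166) on at most 11 reads in control and 75 in cryptorchid, with 5.35 in replicates 1 to 3 and 0.73 in replicates 4 and above. Leaving out control replicate 2 ended its call (2.37). *Mgst1*, a membrane-bound transferase and peroxidase, had 3.47 (unadjusted *P*=0.0253) on at most 38 reads in control and 90 in cryptorchid. Its call was lost without control replicate 1 (2.67), 2 (2.89) or 3 (2.98) or cryptorchid replicate 5 (3.05) or 7 (3.08). *Mafk* lost its call without control replicate 1 (-0.97) or 2 (-1.15) or cryptorchid replicate 4 (-1.15), 5 (-1.20), 6 (-0.91) or 7 (-1.05).
In the pooled libraries no gene was called among the 11 selenoproteins and factors of their synthesis, the 10 genes of cysteine and the gamma-glutamyl cycle, the 19 thioredoxin-fold and repair genes or the 6 iron and heme genes. *Sesn2* (-0.97), *Oplah* (-0.92) and *Sesn1* (0.67) passed the *P* limit but not the fold (unadjusted *P*=0.00884, 0.0175 and 0.0410, limma). *Txndc2*, *Txndc8* and *Nme8* were called lower in replicates 1 to 3 alone (-2.73, -3.29 and -2.62), as were 345 of all 16932 genes. Each had its lowest value in cryptorchid replicate 2 (-0.67, -1.90 and 0.22 log2 RPM), where the summed spermatid markers were least (13.5 RPM). The part of spermatid RNA in these values was not tested. In replicates 4 and above, *Sesn2* (-1.76), *Oplah* (-1.15), *Chac1* (-2.53) and *Glrx2* (-1.09) were called lower and *Msrb3* (1.62) higher. Over all genes, 705 were called lower and 635 higher in that set.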

How the data were processed

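RNA-seq was done on 12 libraries of sorted GFRa1+/Kit- spermatogonia, 5 control and 7 cryptorchid. To make the deposited log2 RPM values, the authors trimmed reads with Trim Galore 0.6.6, mapped them to mm10 with HISAT2 2.1.0, counted them with SeqMonk over protein-coding genes and scaled them to library totals; replicates were not pooled and the strand of counting is not given in the sources used here. Columns were matched to libraries by name, and 0 columns belonged to no sample. A gene without reads stands at the value of 0.9 reads, which gave the read number behind each value (100% whole within 0.02 reads, for values under 1000 reads). Reads are not independent molecules, so depth covers counting error only.

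Differences were tested with limma 3.58.1 (trend) in R 4.3.3 over 16932 genes and adjusted by Benjamini-Hochberg, and the test was tried on simulated counts. edgeR was not used, as the values given are log2 RPM, and the reads recovered from them entered voom as an alternative. The members, gene lists and tests were chosen with earlier results of these data known. Named genes are every called member, then the smallest *P*-values up to 12, and 16 core genes, with called genes of the other lists. Positions are from GENCODE vM21 (GRCm38, the build of mm10), promoters from RefSeq. Alternatives were 2 scalings, 2 pseudocounts (1 and 0.1 RPM), no filter and one at 2, array weights, voom on the whole reads, a block for replicate number, the replicate set as a term, each set alone, a common floor (-1.92 log2 RPM) and each library left out.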

Additional observations from a re-analysis of the deposited data

Results flagged for a closer look

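In 7 of the 62 groups of values of the 31 named genes, 1 library stood apart by Dixon's criterion, where chance gives about 1 in 20. Of these, 6 were replicate 3 of either group. Control replicate 3 was low for *Hmox1* (5.08 log2 RPM, nearest 6.01), *Sod1* (6.60, nearest 9.43) and *Prdx1* (9.0, nearest 10.25) and high for *Nox4* (5.74, nearest 3.83). Cryptorchid replicate 3 was low for *Sod1* (6.26 log2 RPM, nearest 8.72) and *Sod2* (5.75, nearest 6.45). Cryptorchid replicate 2 was low for *Txnrd1* (5.68 log2 RPM, nearest 6.49). Each low value rests on 346 reads or more.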

How the results depend on the processing

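The 0 members called higher became 1 with array weights, with voom, with a term for the replicate set (*Gpx3*) and with a common floor. With 1 library left out they became 0 to 2. Over all genes, 603 higher calls became 882, 785, 580 and 538 in these fits, in this order, and 501 to 750 with 1 library left out. The 2 members called lower became 4 with quantile normalization and 7 with the term for the set. They became 4 in replicates 1 to 3, 6 in replicates 4 and above and 1 to 5 with 1 library left out. With the filter at 2, which removed *Gsta2* before testing, 1 was called lower. Over all genes, 399 lower calls became 542 with quantile normalization and 635 with the set term. They became 345 in replicates 1 to 3, 705 in replicates 4 and above and 280 to 572 with 1 library left out. The 0 members without overlap became 7 and 16 in the 2 sets, and 0 to 1 with 1 library left out. Of the other lists, 2 genes called higher became 1 with quantile normalization, log2(RPM + 1), the filter at 2 or the common floor. With 1 library left out they became 0 to 3. Over all genes, higher calls were 457 with quantile normalization, 460 with log2(RPM + 1), 385 with the filter at 2 and 538 with the common floor. The 3 called lower became 6 with median centring or quantile normalization, 5 with the term for the set and 6 in replicates 4 and above. With 1 library left out they became 2 to 5. Over all genes, lower calls were 501 with median centring and as given above in the other fits. Over all genes, 2 had an adjusted limma *P*-value under 0.05, against 252 higher and 224 lower with array weights and 15 and 31 with the set term, and calls were 51.5% higher ones with median centring.

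Samples of the same number deviated together in 4 of 5 pairs (correlations 0.35, 0.36, 0.41, 0.25 and 0.05), and 4 of 5 controls matched their own number best, a hint of pairing from the data. The labels do not say that a number marks a shared mouse and 1 pair was under 0.1, so the block was kept as an alternative. With the replicate block, 8 members were called lower, 8 had an adjusted limma *P*-value under 0.05 (*Gstm5* 0.00154, *Gstt4* 0.00370, *Gpx4* 0.00849, *Sod1* 0.0139, *Gpx6* 0.0225, *Hmox2* 0.0375, *Txnrd3* 0.0438 and *Gsta2* 0.0498), all with lower values in cryptorchid, and 6 genes of the other lists were called lower (382 higher and 567 lower adjusted calls over all genes). Over all genes, 900 were called lower and 778 higher with this block. *Txnrd1* (-0.00095) and *Prdx1* (-0.034) turned sign with it.

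In replicates 4 and above *Nfe2l2* (-0.010) and *Hmox1* (-0.055) turned sign, and in replicates 1 to 3 *Gclc* (-0.24) and *Gclm* (-0.058). With 1 library left out the differences ran from -0.068 to 0.40 for *Gclc*, -0.21 to 0.36 for *Gclm*, -0.42 to 0.072 for *Gsr*, -0.095 to 0.24 for *Hmox1*, -0.38 to 0.13 for *Txn1*, -0.021 to 0.25 for *Txnrd1* and -0.060 to 0.36 for *Prdx1*, and the median of the members from -0.39 to 0.0022. The cause of these changes was not tested. Members on few reads, such as *Gpx8* with at most 45 in a library, carry the larger counting error.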
